A study of Mus musculus with 16 samples.

Results

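The myogenic transcription factors described here comprise 9 genes of 3 families: the myogenic regulatory factors (MRFs) Myod1, Myf5, Myog and Myf6, the MEF2 factors Mef2a, Mef2c and Mef2d, and the pair of the homeobox factor Six4 and its coactivator Eya1. They were chosen by name, as the rows of the gene count tables whose Ensembl identifiers carry these symbols, and are 9 of 49585 genes. Total RNA was sequenced from 16 libraries of C2C12 cells, an established line of mouse myoblasts whose cells join into multinucleated myotubes when serum is lowered. The first table held unedited C2C12 cells (WT) and AMPK-KO cells. In the latter, the AMP-activated protein kinase α1 and α2 catalytic subunits (Prkaa1 and Prkaa2) had both been disrupted by CRISPR-Cas9. Each genotype came as myoblasts in fetal bovine serum (d0) and after 8 days in equine serum (d8), with 2 libraries per group. The labels call the d8 cells of both genotypes myotubes, a name for the stage that does not show that AMPK-KO cells had fused. The second table held AMPK-/- C2C12 myoblasts at d0 whose endogenous Tet2 gene, which encodes a DNA demethylating enzyme, carried a FLAGBirA tag and either the wild-type sequence (TET2-WT) or a change that mimics a phosphorylated serine (TET2-S97E). These came as 2 clones per genotype and 2 libraries per clone, and every one of them lacked AMPK. A legend of the study describes its displayed sequencing profiles as coming from a pair of independent AMPK-KO lines, but the labels tie no library to a line. Nor do they state whether the 2 libraries of a group came from separate cultures. Each p-value thus measures only the spread between these libraries, which may be technical and, for AMPK-KO, may include a difference between lines. Total counts per library ranged from 17883417 to 24663079 for WT and AMPK-KO and from 19801909 to 37790358 for the TET2 clones. Values are counts per 1e+06 counts of the library after TMM scaling (CPM), and each table was normalized on its own, so levels are compared only within a table.

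The MRFs are basic helix-loop-helix proteins that bind E-boxes together with E proteins. Myod1 and Myf5 establish the myoblast state, Myog drives entry into terminal differentiation, and Myf6 acts mainly in mature fibres. MEF2 proteins bind AT-rich sites and amplify MRF-driven transcription, while Six4 and its relatives, with EYA coactivators, bind MEF3 sites in genes such as Myog and act upstream of the MRFs together with PAX3 and PAX7.

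On GRCm38, the build of the count tables, Myod1 (ENSMUSG00000009471.4) lies at chr7:46376474-46379099 on the plus strand and Myog (ENSMUSG00000026459.5) at chr1:134289989-134292548 on the plus strand. Myf5 (ENSMUSG00000000435.1, chr10:107482908-107486134) and Myf6 (ENSMUSG00000035923.3, chr10:107492853-107494737) are neighbours on the minus strand of one chromosome. The MEF2 genes are spread over separate chromosomes: Mef2a (ENSMUSG00000030557.17) at chr7:67231163-67372858 on the minus strand, Mef2c (ENSMUSG00000005583.16) at chr13:83504034-83667080 and Mef2d (ENSMUSG00000001419.17) at chr3:88142372-88172086, both on the plus strand. Six4 (ENSMUSG00000034460.9) lies at chr12:73099609-73113456 and Eya1 (ENSMUSG00000025932.14) at chr1:14168954-14310235, both on the minus strand. The annotation places the opposite-strand gene Lysmd4 across part of Mef2a, with at most 458 counts in any library, and a strand setting of the counting was not given in the sources used here.

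The 250 bases before the RefSeq start of 3 members are shown because these genes differ in how they behaved below: Myog and Mef2c varied widely between groups and Myf5 varied little. The sequences are RefSeq's for GRCm38.p6, written on the gene's strand, with capitals marking an E-box (CANNTG), the letters CTANNNNTA taken from the MEF2 consensus, and the MEF3 letters TCAGGTT, each searched on both strands. Myog is chr1:134289754-134290003 on the plus strand, Mef2c, as its first listed start, is chr13:83503784-83504033 on the plus strand, and Myf5 is chr10:107486135-107486384 on the minus strand.
Myog: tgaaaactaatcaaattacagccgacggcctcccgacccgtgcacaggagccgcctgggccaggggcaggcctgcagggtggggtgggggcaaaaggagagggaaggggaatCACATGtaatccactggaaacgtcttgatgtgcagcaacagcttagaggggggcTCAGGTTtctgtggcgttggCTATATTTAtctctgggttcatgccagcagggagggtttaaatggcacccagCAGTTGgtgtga
Mef2c: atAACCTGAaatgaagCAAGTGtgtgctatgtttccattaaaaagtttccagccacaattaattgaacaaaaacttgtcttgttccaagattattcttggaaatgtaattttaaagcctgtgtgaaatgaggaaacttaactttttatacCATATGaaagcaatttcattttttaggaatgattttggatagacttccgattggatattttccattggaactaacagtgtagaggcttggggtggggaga
Myf5: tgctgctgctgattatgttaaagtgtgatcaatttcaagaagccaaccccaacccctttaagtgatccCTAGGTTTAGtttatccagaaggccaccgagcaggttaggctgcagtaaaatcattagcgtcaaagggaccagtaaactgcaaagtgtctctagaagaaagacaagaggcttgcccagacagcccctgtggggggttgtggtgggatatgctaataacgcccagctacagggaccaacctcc
The Myog sequence held E-boxes at -138 and -12, the MEF3 letters at -84 and the MEF2 letters at -64, each counted back from the RefSeq start to the first base of the match. That start follows the printed sequence and lies inside the gene as placed above, whose first base is 134289989, so the -12 E-box falls within that annotation. That combination of all 3 motifs was present in 0.527% of the 32851 RefSeq promoters of this length, of which 66.2% held an E-box, 19% the MEF2 letters and 3.49% the MEF3 letters. Mef2c, at its first listed start, held a pair of E-boxes and the MEF3 letters on the reverse strand. RefSeq lists other Mef2c starts, of which the second held none of the 3 motifs and the third an E-box and the MEF2 letters. Myf5 held the MEF2 letters alone, on both strands at overlapping positions. Of the members not shown, Mef2a and Mef2d held none of the 3 motifs, Six4 held the MEF3 letters at 1 of its starts, and Myod1, Myf6 and Eya1 had no entry. The 3 shown were picked by how they behaved, so a link of motif to behaviour was not tested. These are matches of letters only, and binding was not measured in these tables.

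The labels were first checked on the edited genes and on tissue markers. Prkaa1 read 159 and 159 CPM in WT d0 and 79.7 and 78.0 CPM in AMPK-KO d0 (log2 fold change -1.01, adjusted p = 0.0116 by edgeR's quasi-likelihood test), and 126 and 125 against 83.3 and 82.5 CPM at d8 (-0.60, adjusted p = 0.0419 by edgeR). Prkaa2 was far less abundant, at 1.69 and 1.79 CPM in WT d0 and 0.209 and 0.421 in AMPK-KO d0 (-2.43, adjusted p = 0.0527, not called by edgeR), and it fell at d8 from 6.22 and 10.1 to 1.26 and 0.826 CPM (-2.96, adjusted p = 0.019 by edgeR). A frameshifting edit need not lower a transcript, so these levels check the labels only in part. Of the 8 fits that left out 1 library, the call of Prkaa1 held in 6 at d0 (adjusted p up to 0.0997 by edgeR) and in 1 at d8 (up to 0.234), and that of Prkaa2 at d8 in 4 (up to 0.131). Tet2 read 34.3, 22.5, 58.4 and 56.4 CPM in the TET2-WT libraries and 12.9, 22.0, 7.88 and 22.1 in the TET2-S97E libraries (-1.40, adjusted p = 0.0621 by edgeR; 0.366 on counts summed per clone), and gene counts do not show the point change itself. Skeletal muscle markers were present in every library, with Des or Acta1 the most abundant and 5 or 6 of 6 markers above 3 counts. The adipocyte and osteoblast lists summed to at most 1.67 and 0.858 CPM, and the 4 macrophage markers to 1.41 to 7.87 CPM. Of these, Adgre1 was at 0 counts in every library, and Cd68, a lysosomal protein, was the most abundant, at 0.845 to 6.66 CPM. Their sum was highest in TET2-S97E clone 1, at 7.87 and 4.72 CPM, and its part in the results on that clone was not tested.

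In myoblasts, the question was whether loss of AMPK was accompanied by a change in the myogenic factors. Of the 8 members with enough counts to test, AMPK-KO cells had lower Myod1 and Myog and the others did not pass the test, beside 2.83% of all 14329 tested genes called lower, 0.698% higher and 3.52% in either direction. The median log2 difference of the 8 was -0.39, against -0.00 over all tested genes. The groups did not overlap for 5 of the 8 members, Myod1, Myog, Mef2a, Mef2c and Eya1, and for 49.4% of all tested genes. Myf6 had 0 to 10 counts across all 16 libraries, with at most 0.469 CPM and no more than 3 counts in 10 libraries, and was not tested in any comparison.

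Myod1, the factor that marks determined myoblasts, read 77.5 and 133 CPM in the WT d0 libraries and 7.90 and 13.6 CPM in AMPK-KO d0. The AMPK-KO libraries were both below the WT libraries, a 9.76-fold lower level (log2 fold change -3.29, SE 0.449, adjusted p = 0.0147 by edgeR's quasi-likelihood test). Myog, the switch to terminal differentiation, read 29.5 and 19.6 CPM in WT and 0.628 and 0.561 CPM, 12 counts each, in AMPK-KO. It was 41.0-fold lower with no overlap of the groups (log2 fold change -5.36, SE 0.681, adjusted p = 0.0116 by edgeR). Both calls depended on having both AMPK-KO d0 libraries: without replicate 1 the adjusted p by edgeR was 0.117 for Myod1 and 0.106 for Myog, and without replicate 2 it was 0.065 and 0.0924, with log2 differences of -2.96 to -3.75 and -5.44 to -5.30.

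Among the MEF2 genes, Mef2c stood apart. It read 15.0 and 10.3 CPM in WT d0 and 0.209 and 0 CPM in AMPK-KO d0, that is 4 counts in one library and none in the other. Its 501 WT counts against 4 correspond, after scaling for library size, to a ratio of 129 with a 95% exact interval of 50.2 to 477 for counting error alone. With a spread shared across both days, the log2 difference of -6.91 (SE 1.69) was not called by edgeR (adjusted p = 0.0785), and it was called when only the d0 libraries were fitted (adjusted p = 0.0325 by edgeR), without either AMPK-KO d8 library (0.00844 and 0.00775) and by DESeq2 (0.00117). The difference was -11.05 without AMPK-KO d0 replicate 1, which held all 4 counts, and -5.90 without replicate 2. The 2 AMPK-KO d8 libraries differed widely in Mef2c, as described below. Mef2a, which most cell types express, read 196 and 168 CPM in WT and 142 and 131 in AMPK-KO (-0.41, adjusted p = 0.223 by edgeR). Mef2d, also broadly expressed, read 161 and 140 CPM against 172 and 156 CPM, and its groups overlapped.

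The remaining members, Myf5, Six4 and Eya1, did not pass the test at d0. Myf5, the other determination factor, read 49.1 and 61.9 CPM in WT d0 and 66.7 and 51.7 CPM in AMPK-KO d0, overlapping ranges with a log2 difference of 0.09 that took the other sign without either WT replicate 1 or AMPK-KO replicate 1. Six4 read 59.2 and 40.8 CPM against 41.0 and 36.9 CPM (-0.36, adjusted p = 0.395 by edgeR), with -0.08 without WT d0 replicate 1 and -0.60 without replicate 2. Eya1, a phosphatase and coactivator of Six4, read 31.5 and 31.6 CPM in WT and 26.8 and 25.9 CPM in AMPK-KO (-0.26, adjusted p = 0.41 by edgeR).

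**Figure D1:**
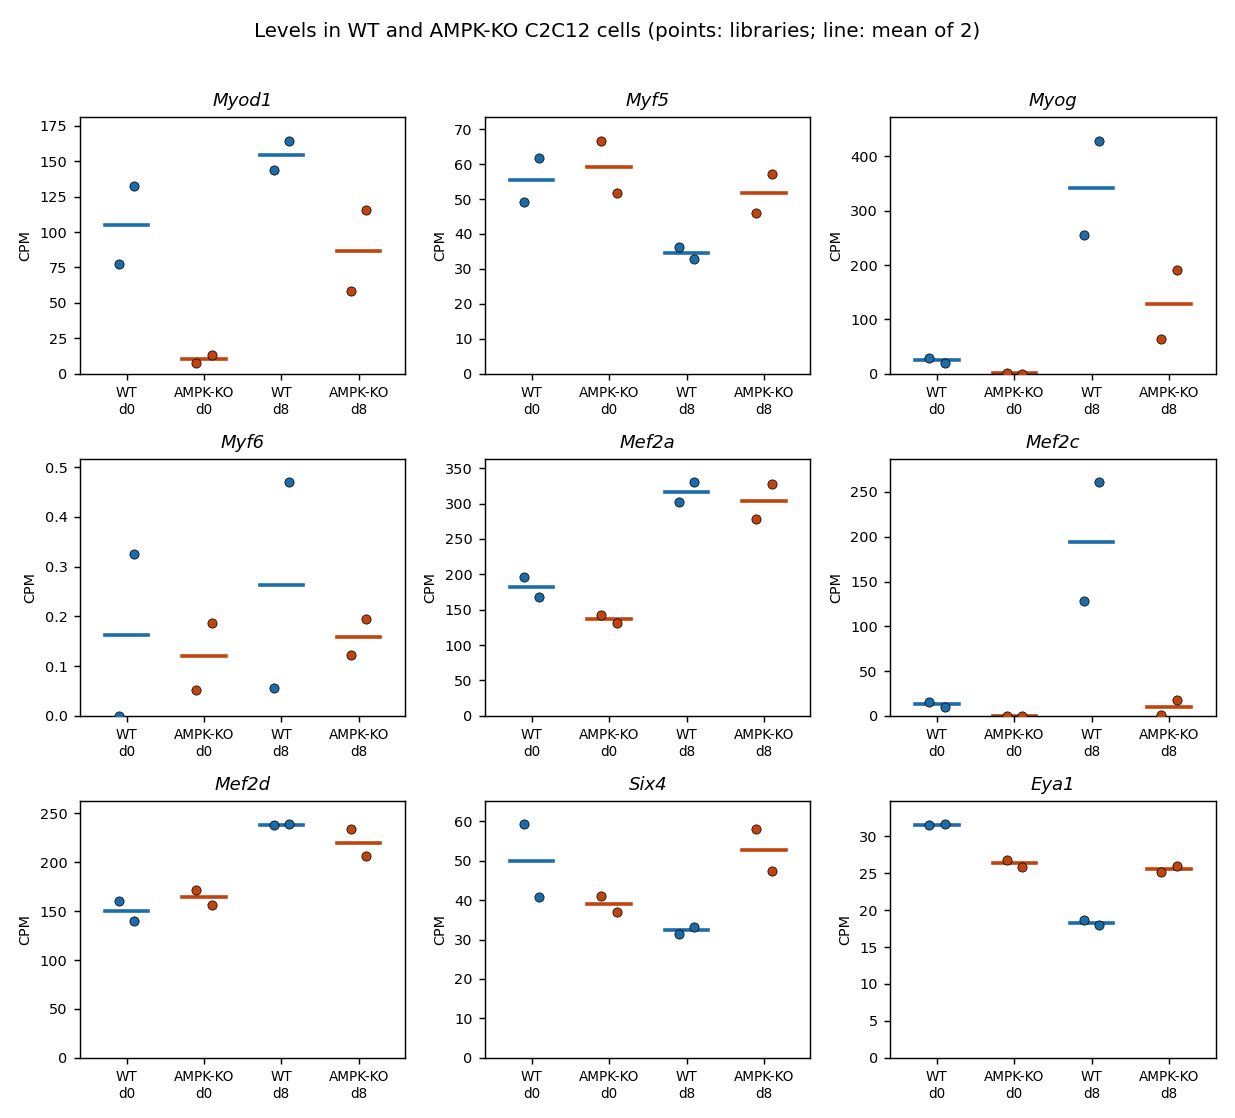
CPM of the 9 members in the 8 WT and AMPK-KO libraries, one panel per gene, with each point a library and each horizontal line the mean of the 2 libraries of a group; every vertical axis is linear and starts at 0. Myod1, Myog and Mef2c were far lower in AMPK-KO d0 than in WT d0, whereas Myf5 and Mef2d overlapped.

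The make-up of each family was compared next, as CPM per kilobase of exon. Myod1 made up 49.0% and 62.4% of the MRF level in the WT d0 libraries, and Myf5 made up 87.2% and 76.0% in the AMPK-KO d0 libraries. The MRF total itself was 84.9 and 114 CPM per kilobase in WT d0 and 36.7 and 32.7 in AMPK-KO d0. At d8 Myog was the most abundant MRF in both genotypes, with 64.2% and 73.3% of the total in WT and 44.4% and 58.8% in AMPK-KO. Within the MEF2 family the order of the levels per kilobase was Mef2d, Mef2a, Mef2c in all 16 libraries, and Mef2c had its highest share, 21.0%, in WT d8 replicate 2 and 11.9% in replicate 1. These shares rest on merged exon lengths of 14681 bases for Mef2a, 15715 for Mef2c and 5985 for Mef2d. In CPM, without the division by length, Mef2a read above Mef2d in most libraries, though not in AMPK-KO d0. In WT d8 replicate 2, Mef2c, at 261 CPM, was also above Mef2d, at 239 CPM.

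**Figure D2:**
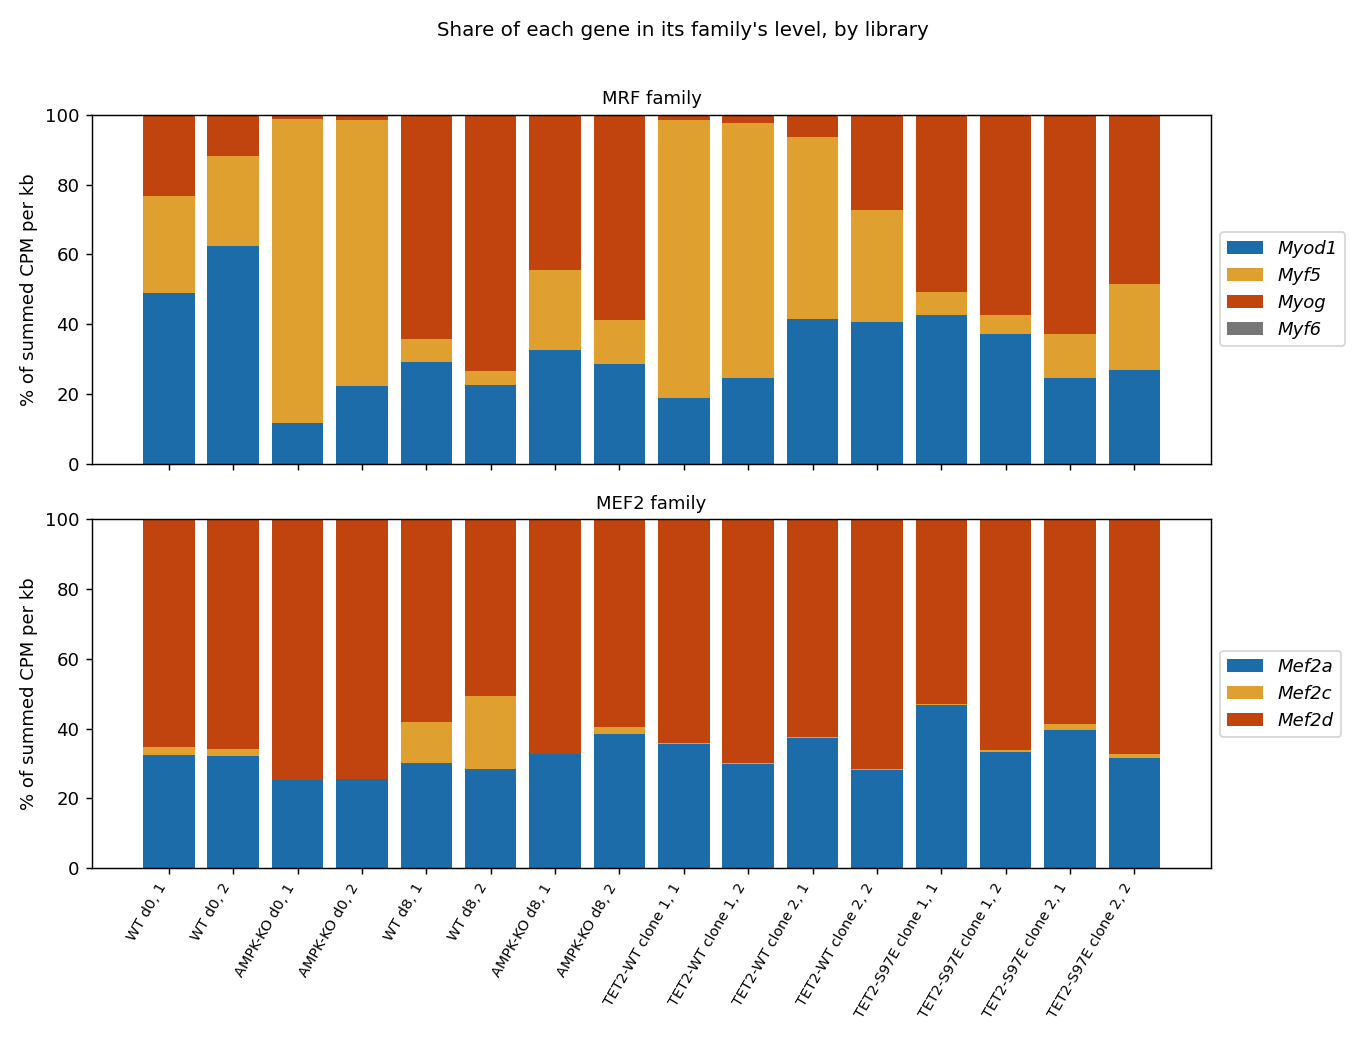
Share of the summed level of the MRF family (top) and the MEF2 family (bottom) held by each gene, in percent of CPM per kilobase of exon, with one stacked bar for each of the 16 libraries. Myf5 took 87.2% and 76.0% in AMPK-KO d0, Myog took 48.5% to 62.8% in the TET2-S97E libraries, and Mef2c reached 11.9% and 21.0% in WT d8.

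Genes that act with or through the members were then counted from fixed lists. The upstream list of PAX, EYA and related factors had 1 of 8 tested genes lower and none higher in AMPK-KO d0, with a median log2 difference of -0.16. That gene was Pax7, the muscle stem cell factor, with 167 and 169 counts in WT d0 and 0 and 1 in AMPK-KO d0, at least 54.8-fold lower (adjusted p = 0.00863 by edgeR). Among E proteins and coactivators 1 of 12 was lower, and this was Vgll2, a muscle cofactor of TEAD proteins, at 38.2 and 40.4 CPM in WT and 0.419 and 0.655 CPM in AMPK-KO (-6.17, adjusted p = 0.00506 by edgeR). Mamstr, a MEF2 coactivator, had a log2 difference of -2.92 (adjusted p = 0.131 by edgeR), Kat2b one of -0.77, and Pitx3, from the upstream list, one of -3.14, and none of these passed. With 1 library left out they ranged from -4.53 to -2.23, from -1.19 to -0.48 and from -7.52 to -2.23, in that order. Without AMPK-KO d0 replicate 1 both lists lost their calls, and without replicate 2 the upstream list did. Most calls over all genes were lost in these fits too.

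The inhibitors of MRF or MEF2 activity, some of which repress the factors studied here, also had only lower calls, 2 of 17, with a median of -0.47. They were Hdac9, a class IIa deacetylase that binds MEF2 (-3.45, adjusted p = 0.0109 by edgeR), and Msc, a repressor that occupies E-boxes, with 134 and 300 counts in WT against 0 and 2 in AMPK-KO, at least 72.4-fold lower (adjusted p = 0.0166 by edgeR). Snai2 did not pass (-1.42, adjusted p = 0.108 by edgeR). The calls of inhibitors were lost without AMPK-KO d0 replicate 1, and not all held without replicate 2. Most calls over all genes were also lost in these fits, so they do not set the inhibitors apart. Of the 24 muscle genes listed as MRF and MEF2 targets, 2 were lower and none higher, and the median was -2.14 with 23 of 24 negative and 13 at an unadjusted p under 0.05, beside 20.9% of all genes. The called ones were the fusion genes Mymk, at 32.2 and 13.2 CPM in WT against 0.733 and 0.187 CPM in AMPK-KO (-5.64, adjusted p = 0.0331 by edgeR), and Mymx, at least 13.1-fold lower (adjusted p = 0.0447 by edgeR). Leaving out 1 library moved the difference of Mymk between -6.89 and -4.87. Mylpf, a fast myosin light chain, read -3.29 without passing (adjusted p = 0.0561 by edgeR). The count of targets called was 11 with DESeq2, beside 9.72% of all genes. The calls of targets were lost without either AMPK-KO d0 library. Most calls over all genes were lost in the same fits, so they do not set the targets apart. The skeletal muscle markers, Myod1 among them, summed to 2194 and 3203 CPM in WT d0 and 1439 and 1869 CPM in AMPK-KO d0. Fewer cells of a differentiating kind and less RNA per cell cannot be told apart in these bulk libraries. The summed fibroblast markers were 372 and 233 CPM in WT d0, led by Ly6a, and 30.6 and 36.3 CPM in AMPK-KO d0, led by Pdgfra, with Thy1 and Tcf21 at or near 0, and their part in these differences was not tested.

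At d8 the same contrast called none of the 8 tested members by edgeR, beside 5.35% of all genes called in either direction, 3.98% lower and 1.36% higher. An unadjusted p under 0.05 was reached by 5 of the 8, beside 22.8% of all genes, and DESeq2 called 2, Myog and Mef2c, beside 11.6%. With the replicate number as a block, edgeR called Myod1 (-0.92, adjusted p = 0.0488) and Mef2c (-4.73, adjusted p = 0.0496). The 3 members that were low in AMPK-KO myoblasts again had negative values, but the AMPK-KO d8 libraries were unlike each other. Mef2c read 128 and 261 CPM in WT d8 and 0.979 and 17.6 CPM in AMPK-KO d8, both below WT (log2 fold change -4.40, SE 1.13, adjusted p = 0.0749 by edgeR). Myog read 255 and 429 CPM against 63.9 and 192 CPM (-1.42, SE 0.505, adjusted p = 0.155 by edgeR). Without AMPK-KO d8 replicate 2, the higher of the pair, Mef2c was called at -7.66 (adjusted p = 0.00906 by edgeR) and Myog at -2.45 (adjusted p = 0.0278 by edgeR). Without replicate 1 they were -3.45 and -0.82, and neither was called.

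Myod1 read 144 and 165 CPM in WT d8 and 58.1 and 116 CPM in AMPK-KO d8 (-0.83, adjusted p = 0.279 by edgeR), a difference that was -0.40 without AMPK-KO d8 replicate 1 and -1.44 without replicate 2. Myf5, Six4 and Eya1 lay on the opposite side. Myf5 read 36.3 and 32.8 CPM in WT d8 and 46.1 and 57.2 CPM in AMPK-KO d8, Six4 31.5 and 33.3 against 58.0 and 47.5 CPM, and Eya1 18.6 and 17.9 against 25.2 and 25.9 CPM. For each of these 3 genes both AMPK-KO libraries were above both WT libraries, with log2 differences of 0.58, 0.70 and 0.49 and adjusted p values of 0.158, 0.111 and 0.133 by edgeR, so none was called. The difference of Myf5 was 0.38 without AMPK-KO d8 replicate 2. Mef2a and Mef2d differed by -0.06 and -0.11 on the log2 scale, and Mef2a by -0.22 to 0.07 when 1 library was left out. The groups overlapped for Mef2a and not for the other 7 members, beside 57.9% of all tested genes whose groups did not overlap.

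**Figure D3:**
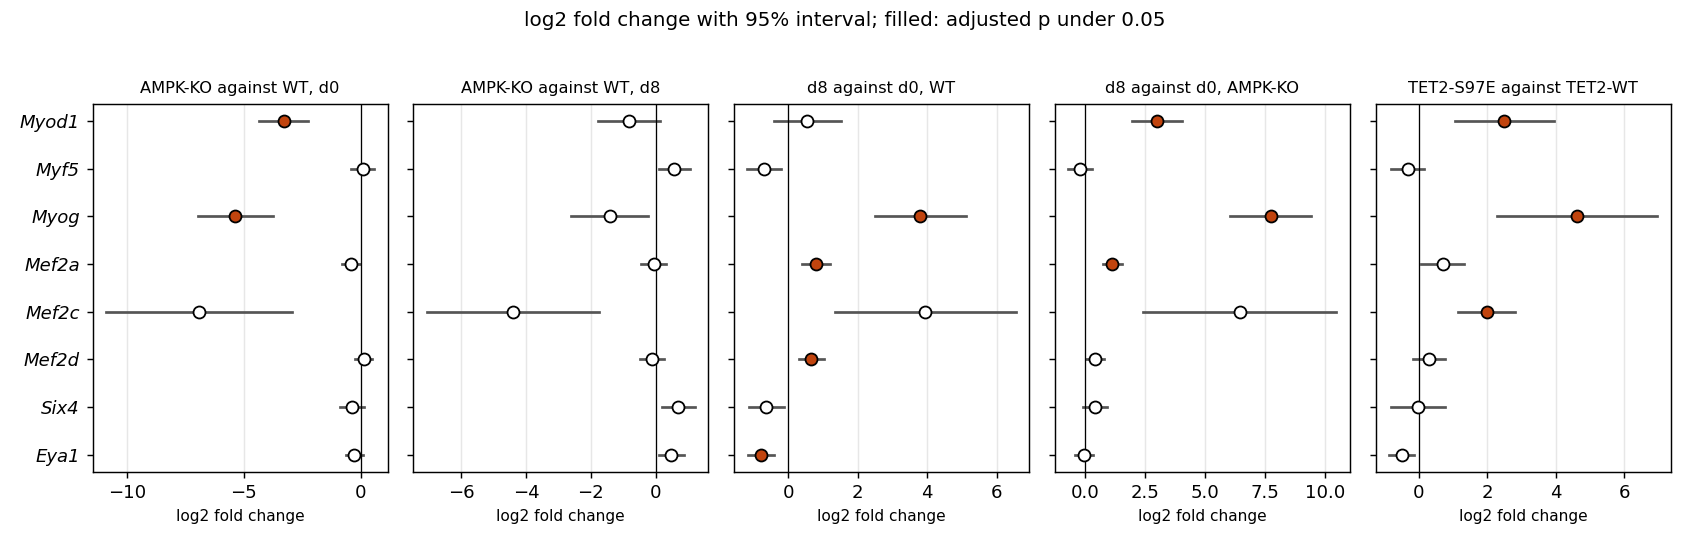
Log2 fold changes of the 8 tested members in the genotype and time comparisons, from edgeR, with points as estimates, horizontal lines as 95% intervals and filled points as calls at adjusted p under 0.05. Myog rose by 3.80 over time in WT and by 7.74 in AMPK-KO, and the intervals of Mef2c were the widest of the first table.

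Around the members, Pax7 stayed lower in AMPK-KO d8, with 0 and 2 counts against 138 and 177 in WT d8, at least 54.6-fold (adjusted p = 0.00629 by edgeR), and Lbx1, also on the upstream list, was called lower, so that list had 2 of 8 lower. Vgll2 was at least 181-fold lower (adjusted p = 0.00347 by edgeR), the 1 call of 12 among E proteins and coactivators, and Hdac9 was lower at -2.50 (adjusted p = 0.0187 by edgeR), the 1 call of 17 among inhibitors, which was lost without either WT d8 library or without AMPK-KO d8 replicate 1. The upstream count was 1 when any 1 of the d8 libraries was left out, or without AMPK-KO d0 replicate 2. Of the 24 targets, Cav3, the muscle caveolin, was the 1 called, and the list's median of -0.49 was -0.01 without AMPK-KO d8 replicate 1 and -1.82 without replicate 2. The summed skeletal muscle markers were 7688 and 9034 CPM in WT d8 and 3204 and 11048.6 CPM in AMPK-KO d8. The AMPK-KO library that was lower in Myod1, Myog and Mef2c was thus also lower in these markers, whose part was not tested. The summed fibroblast markers, led by Dcn, were 1308 and 1934 CPM in WT d8 and 297 and 435 CPM in AMPK-KO d8. Their part was not tested either.

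The time comparison asked how the members moved between d0 and d8. In WT cells Myog, Mef2a and Mef2d rose and Eya1 fell, 4 of 8 members, beside 5.78% of all genes called higher, 6.58% lower and 12.4% in either direction. Myog rose from 29.5 and 19.6 CPM to 255 and 429 CPM (log2 fold change 3.80, SE 0.556, adjusted p = 0.0143 by edgeR). Mef2a rose from 196 and 168 to 302 and 330 CPM (0.80, SE 0.168, adjusted p = 0.0292 by edgeR) and Mef2d from 161 and 140 to 238 and 239 CPM (0.66, SE 0.156, adjusted p = 0.0375 by edgeR). Eya1 fell from 31.5 and 31.6 to 18.6 and 17.9 CPM (-0.79, SE 0.160, adjusted p = 0.0263 by edgeR). The d0 and d8 libraries did not overlap for any of the 8 members, called or not, nor for 61.5% of all tested genes. The summed fibroblast markers went from 372 and 233 CPM at d0 to 1308 and 1934 CPM at d8 in WT. In AMPK-KO cells they went from 30.6 and 36.3 to 297 and 435 CPM, and their part in the time changes was not tested.

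Mef2c in WT went from 15.0 and 10.3 CPM to 128 and 261 CPM, a log2 difference of 3.94 (SE 1.11) that was not called in the joint fit (adjusted p = 0.0608 by edgeR) and was called among the WT libraries alone (0.011). That fit to the WT libraries alone kept the call of Myog and lost those of Mef2a (adjusted p = 0.0602 by edgeR), Mef2d (0.0778) and Eya1 (0.0677). Myod1, at 77.5 and 133 CPM at d0 and 144 and 165 CPM at d8, did not pass (0.55, adjusted p = 0.40 by edgeR), with 0.20 without WT d0 replicate 1 and 1.01 without replicate 2. Nor did Myf5 (-0.68, adjusted p = 0.0741) or Six4 (-0.63, adjusted p = 0.10), though both WT d8 libraries were below both d0 libraries for each gene. Leaving out WT d0 replicate 1 brought Six4 to -0.35. No member was called without WT d0 replicate 2, WT d8 replicate 1 or WT d8 replicate 2. In these fits, with a lone library in a group, almost no gene of the table was called. Leaving out WT d0 replicate 1, which also leaves a lone library, did not have that result. The log2 fold change of Myog was 3.54, 4.10 and 3.35 in that order.

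In AMPK-KO cells Myod1, Myog and Mef2a rose, 3 of 8 members, beside 4.81% of all genes called higher, and none fell, beside 4.95% lower and 9.76% in either direction. Myod1 went from 7.90 and 13.6 CPM at d0 to 58.1 and 116 CPM at d8 (log2 fold change 3.01, SE 0.444, adjusted p = 0.0217 by edgeR). Myog went from 0.628 and 0.561 CPM to 63.9 and 192 CPM (7.74, SE 0.721, adjusted p = 0.0179 by edgeR). Mef2a went from 142 and 131 CPM to 278 and 328 CPM (1.15, SE 0.169, adjusted p = 0.0217 by edgeR). The d8 libraries were above the d0 libraries in each case, with 6 of the 8 members and 59.1% of all tested genes not overlapping between days, and AMPK-KO d8 replicate 1 was the lower of its pair for all 3. Mef2c went from 4 counts to 386 over both libraries, a ratio of 86.7 with a 95% exact interval of 33.6 to 320 for counting error, without passing the test (6.45, SE 1.71, adjusted p = 0.0586 by edgeR). It was called by DESeq2 (adjusted p = 0.0017) and with no filter on low counts, and was 7.39 without AMPK-KO d8 replicate 1. Of the 386 counts, 362 came from AMPK-KO d8 replicate 2 and 24 from replicate 1, and the log2 difference was 3.20 without replicate 2 and 10.56 without AMPK-KO d0 replicate 1, so the interval for counting error does not cover the spread between libraries. Without AMPK-KO d8 replicate 2 the changes of Myog and Myod1 were 6.71 and 2.41, and without replicate 1 that of Myog was 8.33. None of the 8 was called without AMPK-KO d0 replicate 1 or replicate 2. Almost no gene of the table was called in these fits, where Myog changed by 7.80 and 7.67. Without AMPK-KO d8 replicate 2, Mef2a alone was lost, at a log2 change of 1.00.

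Most target genes rose in both genotypes, with 19 of 24 called higher and none lower in WT (median log2 difference 5.57; 5.27 with genes at or under 3 counts set to their bound) and 19 of 24 in AMPK-KO (median 7.12). None of the 24 was called in WT without WT d0 replicate 2, WT d8 replicate 1 or WT d8 replicate 2. The same held in AMPK-KO without either AMPK-KO d0 library. In these fits almost no gene of the table was called, so they do not set the targets apart. The medians of the list were 4.96 to 5.82 in WT and 7.17 to 7.46 in AMPK-KO.

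The change over time was compared directly between genotypes as an interaction. None of 14329 genes was called by edgeR, so the background was 0%, and DESeq2 called 60 genes, 0.419%, among them Myod1 (adjusted p = 0.0187) and Myog (0.00031). With edgeR, 4 of the 8 members had an unadjusted p under 0.05, beside 5.09% of all genes. These were Myog, whose time change was larger in AMPK-KO by 3.94 on the log2 scale (SE 0.835, adjusted p = 0.876 by edgeR), Myod1 (larger by 2.46, SE 0.589, adjusted p = 0.876), Six4 (1.07, SE 0.304, adjusted p = 0.876) and Eya1 (0.75, SE 0.226, adjusted p = 0.892). For Myod1 and Myog the AMPK-KO d0 libraries held the lowest values of the table. For Six4 both WT libraries were lower at d8 than at d0 and both AMPK-KO libraries were higher. Eya1 fell in WT, and in AMPK-KO read 26.8 and 25.9 CPM at d0 and 25.2 and 25.9 CPM at d8.

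The second table asked whether a TET2 that mimics the phosphorylated form altered these genes in cells without AMPK. In TET2-S97E myoblasts Myod1, Myog and Mef2c were higher than in TET2-WT, 3 of 8 tested members, and none was lower, beside 3.71% of 13433 genes called higher, 3.28% lower and 6.98% in either direction. The median log2 difference of the 8 was 0.50, against 0.01 over all genes. The genotypes did not overlap for those 3 members and for 15.3% of all genes. The libraries of 1 clone are not independent, and on counts summed per clone, with 2 clones against 2, edgeR called no gene of the table, with Myod1, Myog and Mef2c at an unadjusted p under 0.05, beside 10.4% of the 15126 genes tested in that fit.

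Myod1 read 7.14 and 10.4 CPM in TET2-WT clone 1, 18.0 and 26.2 in TET2-WT clone 2, 147 and 145 in TET2-S97E clone 1, and 27.5 and 29.1 in TET2-S97E clone 2. Every TET2-S97E library was above every TET2-WT library, but clone 2 of TET2-S97E lay just above clone 2 of TET2-WT. The log2 fold change was 2.50 (SE 0.647, adjusted p = 0.0496 by edgeR), and the clone sums gave 2.45 (adjusted p = 0.424 by edgeR). Without TET2-S97E clone 1 it was 0.86 (adjusted p = 0.316 by edgeR), without TET2-WT clone 1 it was 1.98 (0.257), and without TET2-WT clone 2 it was 3.30 (0.0746). It was also lost without any 1 of 5 libraries, both of TET2-WT clone 1, both of TET2-S97E clone 1 and TET2-WT clone 2 replicate 1 (adjusted p 0.0945 to 0.126 by edgeR), and with limma-voom treating the clone as a random effect (0.14).

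Myog read 0.407 and 0.633 CPM in TET2-WT clone 1, 2.11 and 13.9 in TET2-WT clone 2, 141 and 180 in TET2-S97E clone 1, and 56.6 and 42.1 in TET2-S97E clone 2. The genotypes did not overlap, and the lowest TET2-S97E library was still above the highest TET2-WT library. The log2 fold change was 4.61 (SE 1.04, adjusted p = 0.0307 by edgeR), 4.52 on clone sums (adjusted p = 0.366 by edgeR) and called by limma-voom with the clone as a random effect (adjusted p = 0.0382). Without TET2-S97E clone 1 it was 3.52 (adjusted p = 0.102 by edgeR) and without TET2-WT clone 1 it was 3.70 (0.107), and leaving out any 1 of the same 5 libraries gave 0.0572 to 0.0971. Without TET2-WT clone 2 replicate 2, the highest TET2-WT library, the log2 fold change was 6.69, and without TET2-WT clone 2 it was 7.59.

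Mef2c read 1.76, 1.21, 1.65 and 3.21 CPM in TET2-WT and 5.50, 6.77, 12.1 and 6.57 CPM in TET2-S97E, again with no overlap. Its log2 fold change was 1.98 (SE 0.372, adjusted p = 0.0179 by edgeR), 1.91 on clone sums (adjusted p = 0.305 by edgeR) and not called by limma-voom (0.065). Unlike Myod1 and Myog it was not highest in TET2-S97E clone 1. The call was lost without TET2-WT clone 1 (1.66, adjusted p = 0.119 by edgeR), and without replicate 1 of either TET2-WT clone (0.0617 and 0.061).

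**Figure D4:**
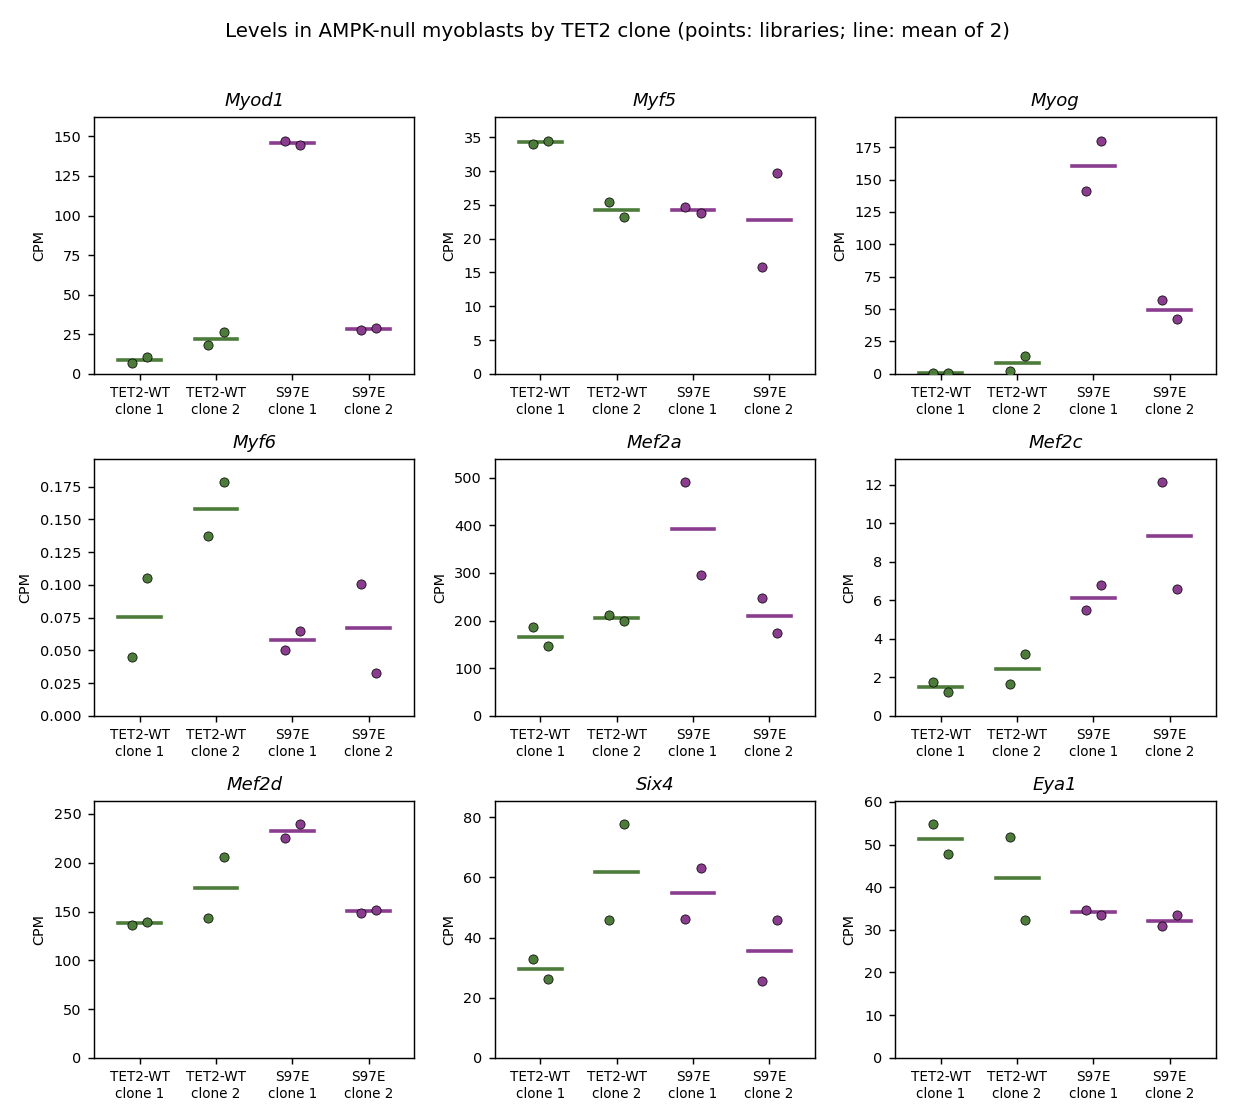
CPM of the 9 members in the 8 libraries of the TET2 table, one panel per gene on a linear axis from 0, with each point a library and each horizontal line the mean of the 2 libraries of a clone. Myod1 and Myog were highest in TET2-S97E clone 1, and Mef2c was above every TET2-WT library in all 4 TET2-S97E libraries.

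Mef2a, Mef2d, Six4, Eya1 and Myf5 did not pass. Mef2a read 186, 146, 212 and 198 CPM in TET2-WT and 490, 295, 247 and 174 CPM in TET2-S97E, overlapping ranges (0.70, adjusted p = 0.171 by edgeR; 1.08 and 0.028 without TET2-S97E clone 2). The difference of Mef2a was 0.17 without TET2-S97E clone 1 and 0.37 without that clone's replicate 1 alone. Mef2d read 137, 139, 144 and 205 against 226, 239, 149 and 152 CPM (0.29, adjusted p = 0.44 by edgeR), and took a log2 difference of -0.07 without TET2-S97E clone 1. Eya1 read 54.7, 47.8, 51.7 and 32.4 against 34.7, 33.5, 30.8 and 33.5 CPM (-0.49, adjusted p = 0.107 by edgeR), and was called lower without TET2-WT clone 2 replicate 2 (-0.63, adjusted p = 0.0163 by edgeR). Myf5, at 34.0, 34.5, 25.4 and 23.2 CPM in TET2-WT and 24.6, 23.7, 15.8 and 29.7 CPM in TET2-S97E, did not pass (-0.32, adjusted p = 0.411 by edgeR). Six4 ranged from 26.3 to 77.6 CPM in TET2-WT and from 25.6 to 63.2 CPM in TET2-S97E, with a log2 difference of -0.01 that lay between -0.22 and 0.37 when 1 library was left out.

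Clones of 1 genotype also differed from each other. Between the TET2-WT clones Myod1 was the 1 member called, higher in clone 2 (1.32, SE 0.23, adjusted p = 0.0388 by edgeR), beside 0.463% of genes called higher, 0.394% lower and 0.858% in either direction, while Myog differed by 3.89 (SE 0.788, adjusted p = 0.0622 by edgeR), or by 1.94 without clone 2 replicate 2. Myog was called by DESeq2 (adjusted p = 0.0015), with the replicate number as a block (0.0347 by edgeR), with no filter on low counts, without clone 2 replicate 1 (4.65, adjusted p = 0.000753 by edgeR) and without any 1 of the TET2-S97E libraries (0.0217 to 0.043). Six4 (1.06, adjusted p = 0.144 by edgeR) was called by DESeq2 (0.018) and with no filter on low counts. The Myod1 call was lost without either clone 1 library (adjusted p = 0.202 and 0.333 by edgeR) or without clone 2 replicate 2 (0.171). Between the TET2-S97E clones Myod1 was again the 1 member called, lower in clone 2 (-2.36, SE 0.23, adjusted p = 0.00117 by edgeR), beside 2.82% of genes called lower, 3.35% higher and 6.17% in either direction. Myog differed by -1.70 there (adjusted p = 0.132 by edgeR), and was called with no filter on low counts and without either TET2-WT clone 2 library (0.00223 and 0.00226 by edgeR). Mef2a (-0.90, adjusted p = 0.085 by edgeR) and Mef2d (-0.63, 0.0827) were also called lower in clone 2 by DESeq2 (0.0104 and 0.0156), with the replicate block (-0.88, 0.0145 and -0.62, 0.0404 by edgeR) and with no filter on low counts, and Six4 (-0.61) with no filter alone (0.0469). With 1 library left out the difference of Mef2a was -1.22 to -0.47. Leaving out 1 library called Mef2a in 1 of 8 fits and Mef2d in 2 of 8. In shares of the MRF level per kilobase, Myf5 held 79.8%, 73.2%, 52.1% and 32.2% in the TET2-WT libraries, and Myog held 50.9%, 57.5%, 62.8% and 48.5% in the TET2-S97E libraries. The MRF total was 20.5 to 34.6 CPM per kilobase in TET2-WT, 185 and 210 in TET2-S97E clone 1, and 60.3 and 58.1 in clone 2.

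Among the genes around the members, Pax7 was the 1 of 8 upstream genes called, with 1, 6, 1 and 2 counts in TET2-WT and 42, 51, 50 and 323 in TET2-S97E (5.53, SE 0.798, adjusted p = 0.0077 by edgeR; 0.277 on clone sums; 0.0698 by limma-voom). Its log2 difference was 4.52 to 6.13 with 1 library left out. Pitx3 did not pass (1.73, adjusted p = 0.15 by edgeR). None of 11 E proteins and coactivators was called by edgeR, with 6 at an unadjusted p under 0.05, beside 23.5% of all genes, and 1 called in each direction by DESeq2, beside 13.6% of all genes, and the lowest values belonged to Mamstr (2.56, adjusted p = 0.103), Meis1 (-0.38, 0.113) and Srf (0.39, 0.114). Of 16 inhibitors, Heyl (2.60, adjusted p = 0.00806 by edgeR) and Bhlhe40 (1.09, 0.0314), both transcriptional repressors, were higher, and Twist2 (-1.05, 0.0391), which sequesters E proteins, was lower. Heyl was called in all 8 fits that left out 1 library, Bhlhe40 in 3 and Twist2 in 1. With the clone as a random effect in limma-voom, Heyl was called (adjusted p = 0.0393) and Bhlhe40 (0.134) and Twist2 (0.0877) were not.

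Targets of the factors had 16 of 22 called higher and none lower, beside 3.71% of all genes called higher and 3.28% lower, with a median log2 difference of 4.18. With limma-voom and the clone as a random effect 1 was called, and on clone sums 0. Examples were Mymk (5.86, adjusted p = 0.00832 by edgeR), the embryonic light chain Myl4 (4.71, 0.00833) and the cell cycle inhibitor Cdkn1a (1.70, 0.0117). By limma-voom Cdkn1a was called (adjusted p = 0.0425), and Mymk (0.065) and Myl4 (0.071) were not. With 1 library left out, Mymk was 5.29 to 7.03 and Myl4 3.89 to 5.46. The count of called targets was 6, with a median of 2.99, without TET2-S97E clone 1, beside 800 of 14206 genes called. It was 21 without TET2-S97E clone 2, beside 1186 of 14091 genes. DESeq2 called 19 targets, beside 13.6% of all genes. Leaving out 1 library gave 3 to 18 targets, beside 304 to 1092 genes. The summed fibroblast markers were 247, 233, 508 and 579 CPM in TET2-WT and 346, 276, 1166 and 705 CPM in TET2-S97E. Dcn held most of each sum. Mean CPM in TET2-WT and TET2-S97E was 66.5 and 50.8 for Pdgfra, 5.23 and 4.62 for Lum and 2.27 and 16.9 for Ly6a. Thy1 and Tcf21 were at or near 0. The summed skeletal muscle markers were 1236, 1536, 1250 and 1526 CPM against 8043, 4219, 2531 and 1335 CPM. The part of either list in these differences was not tested.

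**Figure D5:**
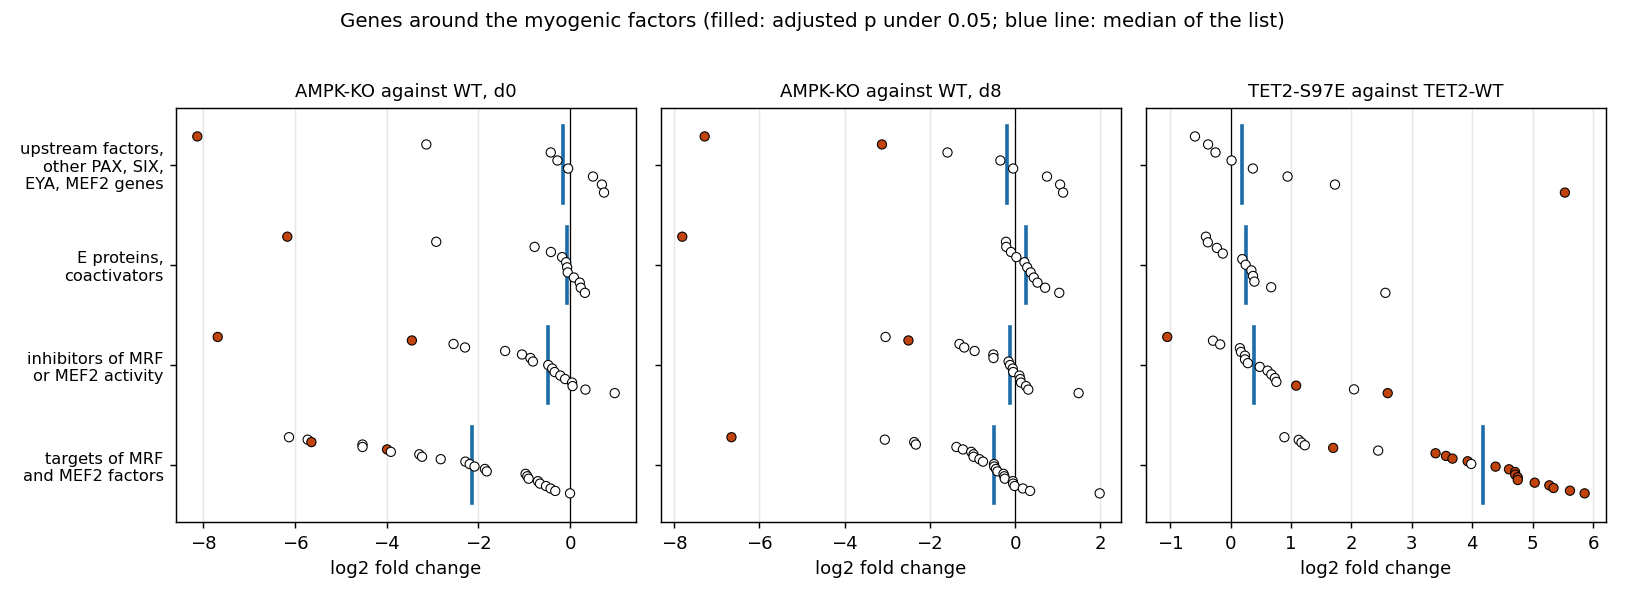
Log2 fold changes of each tested gene of the 4 lists in AMPK-KO against WT at d0 and d8 and in TET2-S97E against TET2-WT, with filled points for genes called by edgeR and a blue line at each list's median. The targets had medians of -2.14, -0.49 and 4.18, and their calls were 2 of 24 lower, 1 of 24 lower and 16 of 22 higher. On counts summed per clone, no gene of the TET2-S97E comparison was called.

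How the members varied with each other is given over the 8 libraries of each table, which share their groups and, in the second, their clones. Myod1 and Myog had a Pearson r of 0.922 in the first table and 0.910 in the second, and Myog and Mef2c 0.892 in both, while Myog and Eya1 had -0.519 and -0.888. Among 12450 genes, those most like Myog over the first table were Jsrp1 (r = 0.993; 0.662 in the second table), Stac3 (0.993; 0.974), both parts of muscle excitation-contraction coupling, and Mymk (0.992; 0.965). Those most like Myod1 were Pdlim3 (0.988; 0.353), Arl3 (0.984; -0.727) and Ccdc141 (0.981; 0.949). Those most like Mef2c included Macf1 (0.989; 0.754) and Adora2b (0.987; 0.015).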

How the data were processed

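Per the labels, the submitters' processing notes name bcl2fastq 2.17, Trim Galore 0.4.5, STAR 2.5.3a and featureCounts 1.5.3, with reads aligned to mm10 (GRCm38). The authors deposited raw counts per gene, in one table for the WT and AMPK-KO libraries and another for the TET2 libraries. The libraries were made from ribosomal RNA-depleted total RNA. Strand and multimapping settings were not given in the sources used here, so overlapping genes may share reads. No column of another series was present.

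Gene names, positions and exon lengths came from GENCODE on GRCm38, which matched 49326 of 49585 identifiers, and promoters from RefSeq (GRCm38.p6), which held entries for 6 of the 9 members. Counts were scaled by TMM and tested with edgeR 4.0.16 (quasi-likelihood, filterByExpr, Benjamini-Hochberg adjustment, threshold 0.05) in R 4.3.3. The 4 groups of the first table were fitted together (14329 genes tested, 4 residual degrees of freedom). The TET2 genotypes were fitted over all 8 libraries (13433 genes, 6 degrees of freedom), and the clones as 4 groups (14459 genes). Printed CPM divide each count by the library's total times its TMM factor and multiply by 1e+06, and likeness used log2 CPM with a prior count of 2. A group at or under 3 counts in every library gives a bound. The exact intervals of the count ratios cover counting error only. The intervals drawn for the log2 fold changes come from the edgeR fit, which also takes in the spread between libraries. DESeq2 1.42.0 and limma 3.58.1 were alternatives. Tested on simulated data for AMPK-KO against WT at d0 (13969 genes), edgeR recovered 137 of 200 genes given a log2 change of 2 and called 8 others. On the same data DESeq2 recovered 164 and called 57 others.

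The members and lists were chosen with earlier results of these data known. All members were named throughout, with the edited genes and Pax7. Also named were the 3 genes with the lowest p per list at d0 and in the TET2 comparison. The 3 genes most like Myod1, Myog and Mef2c were named too. Outside this rule, Lbx1 and Cav3, both called at d8, were named after their values were seen. Some genes that this rule names are not reported here.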

Additional observations from a re-analysis of the deposited data

Results flagged for a closer look

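In the TET2 table each genotype has 4 libraries, and 18 such groups of values were tested for a library far from the rest, of which chance would flag about 1 in 20. Myog in TET2-WT clone 2 replicate 2 was 13.9 CPM, and the gap to the next library took 0.874 of the group's range, above Dixon's 95% critical value. Mef2d in the same library was 205 CPM, with a gap of 0.895 of the range. The same library was also the highest of TET2-WT in Six4, at 77.6 CPM. Six4 was the 1 member for which the genotypes moved in opposite directions over time, both WT d8 libraries being below WT d0 and both AMPK-KO d8 libraries being above AMPK-KO d0. The share of all genes with such a pattern was not computed. Days did not overlap for 61.5% of all tested genes in WT and 59.1% in AMPK-KO. The difference of the changes was 1.07 on the log2 scale (adjusted p = 0.876 by edgeR), so it did not pass correction.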

How the results depend on the processing

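With 2 libraries per group and 2 clones per TET2 genotype, the number of called members moved with the processing, and beyond what fewer libraries or other tested genes bring, the cause was not tested. It was 2 for AMPK-KO against WT at d0, 0 at d8, 4 over time in WT, 3 over time in AMPK-KO, 0 for the interaction, 3 for TET2-S97E against TET2-WT and 1 for either pair of clones. Leaving out 1 library, which assumes that a lone library varies like the other groups, gave 0 to 3, 0 to 2, 0 to 5, 0 to 4, 0 to 0, 0 to 4, 0 to 2 and 1 to 3 in that order. DESeq2 gave 2 at d8, 2 for the interaction, 3 for the TET2-WT clones and 3 for the TET2-S97E clones. Without a filter on low counts these were 3, 3, 3 and 5. A minimum change of 1 on the log2 scale, either way, left 1 member over time in WT, and the WT libraries alone gave 2. For TET2-S97E against TET2-WT the count was 0 on clone sums, 1 with the clone as a random effect, 0 without TET2-WT clone 1 and 1 without TET2-S97E clone 1. The scaling by DESeq2 size factors or upper quartiles and the filter at 1 CPM in 2 libraries changed no count by over 1.5 times. The replicate numbers are not said to mark a shared culture or batch, and the deviations of same-numbered libraries correlated at 0.119 to 0.324 among the WT and AMPK-KO groups and at -0.0355 to 0.512 among the TET2 clones. With the replicate block 2 members, Myod1 and Mef2c, were called at d8, 2 between the TET2-WT clones and 3 between the TET2-S97E clones, and Myod1 was not called in TET2-S97E (adjusted p = 0.0718 by edgeR). Directions turned in 7 of 64 member results, none of them called. These were Myf5 at d0 (-0.11 to 0.28 when 1 library was left out), Mef2a at d8 (-0.22 to 0.073), the Mef2c interaction (-0.74 to 6.62), Eya1 between TET2-WT clones (-0.68 to 0.010) and Myf5 between TET2-S97E clones (-0.60 to 0.25). Mef2d in TET2-S97E was -0.071 without TET2-S97E clone 1. Six4 in TET2-S97E was -0.22 to 0.37 with 1 library left out, 0.014 on clone sums, 0.067 with the clone as a random effect, 0.61 without TET2-WT clone 2 and 0.26 without TET2-S97E clone 2. Over all genes, the 505, 766, 1771, 1398, 0, 938, 124 and 892 calls of the 8 comparisons became 1393, 1656, 2762, 2532, 60, 1825, 894 and 1383 with DESeq2. Without a filter, 7 of the counts were 2026, 2503, 3293, 3039, 449, 1627 and 1680, the TET2-S97E count staying within 1.5 times. The d0 libraries alone gave 335 and the AMPK-KO libraries alone 788. For TET2-S97E the count was 552 with the fold limit, 0 on clone sums, 166 with the clone as a random effect, 183 without TET2-WT clone 1 and 625 without TET2-WT clone 2, and the block gave 677 and 1540 between clones. Leaving out 1 library gave 17 to 613, 107 to 902, 0 to 2260, 0 to 1737, 0 to 6, 304 to 1092, 0 to 313 and 472 to 1014.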
